A study of Mus musculus with 3 samples.

Results

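The genes described are the heat shock proteins and their partners: the HSP90, HSP70, HSP110 and small heat shock protein families, the chaperonin of mitochondria, the heat shock factors, the BAG family with HspBP1, and the DnaJ proteins of classes A, B and C. They were chosen by symbol and not by level. A probe set, which is the group of array probes that reports 1 transcript, was taken where the platform annotation gave it a single gene of these families. The probe set with the highest mean stood for each gene. In this way 79 of the 19938 measured genes were members, read by 102 probe sets, and 43 of them were DnaJ genes. The cells were endothelial cells of the renal medulla of adult male FVB/N mice carrying the transgene Tg(TIE2GFP)287Sato. In this transgene the Tie2 (Tek) promoter drives green fluorescent protein, so the sort took cells in which that promoter was active, whichever vessel they came from. The tissue was digested with collagenase and triturated before sorting, and the RNA was amplified in 1 round before it was hybridised. The arrays had 1 colour, and 3 of them were made, each from a pool of 2 kidneys. All 3 belong to a single untreated group, so the data give levels and their spread, and no fold change against another condition, compartment or unstressed control.

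Heat shock proteins are molecular chaperones. HSP70 binds exposed hydrophobic stretches of unfolded proteins in a cycle driven by ATP. J-domain (DnaJ) proteins bring it substrates and stimulate its ATPase, while HSP110, BAG and HspBP1 proteins release the nucleotide and reset it. HSP90 completes the folding of kinases and receptors, small heat shock proteins hold unfolded clients without ATP, and heat shock factors are the transcription factors that induce many of these genes. In the kidney, the medulla is known for high salt and urea concentrations, and chaperones of tubule cells there have long been studied as part of the adaptation to them.

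The sorted cells carried the defining endothelial markers. All 8 of these, among them Pecam1, Cdh5, Kdr and Tek itself, lay above both limits used here, at mean log2 levels of 10.47 to 13.22. Markers of other cells were mostly lower, but at a mean log2 level of 10.50 Umod fell inside the range of the endothelial markers. The counts above the background limit by limma were 4 of 7 thick ascending limb genes and 5 of 10 collecting duct genes. They were 2 of 6 proximal tubule genes, 0 of 6 smooth muscle and pericyte genes and 1 of 6 leukocyte genes. Among all genes 49.8% lay above this limit, so the thick ascending limb and collecting duct counts do not show depletion of tubule RNA. The summed level of the thick ascending limb markers was 5498, 3310 and 2459 units in replicates 1, 2 and 3, and that of the collecting duct markers 3302, 3945 and 2963. The endothelial sum was 49593, 43974 and 45895 units, and 6 of the 8 endothelial markers were highest in replicate 1. In RNA from a sorted population, fewer cells of a type and less RNA per cell cannot be told apart. The study describes its samples as independent. The p-values given here rest only on the spread between these 3 arrays, pooled with a prior spread taken from other genes. For a gene with equal values in all arrays, the error comes from that prior, and the gene's own spread of 0 makes it smaller. Its p-value thus rests in part on a spread of 0 that is not a measured error.

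Nearly all of these genes were above the level of 100 units that served the study as its filter on expression, and most were also above the level of genes that belong to sensory cells. A unit is the deposited log2 value turned back to a linear scale, so that 100 units is a log2 level of 6.64. By limma with Benjamini-Hochberg adjustment over all genes, 77 of 79 members lay above 100 units, and 2, Dnajb3 and Dnajb7, lay below it. Over all genes 83.0% were above 100 and 12.0% below, so this limit separates little. The second limit was the 95th percentile of 1240 probe sets of olfactory, vomeronasal and bitter taste receptors on the same arrays, a log2 level of 7.94 or 246 units, and 34.8% of those probe sets reached 100 units in all arrays. Above this background limit were 65 members (82.3%), against 49.8% of all genes. Below it were 12 members, against 37.8% of all genes, and 2 members could not be told from it. The median log2 level was 9.38 over the members and 8.15 over all genes. Because probes bind with unequal strength, the genes are not put in order of level, and a level below the background limit does not show that a gene is off.

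The plot of the heat shock proteins, heat shock factors and BAG genes gives the 3 arrays of each gene.

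**Figure D1:**
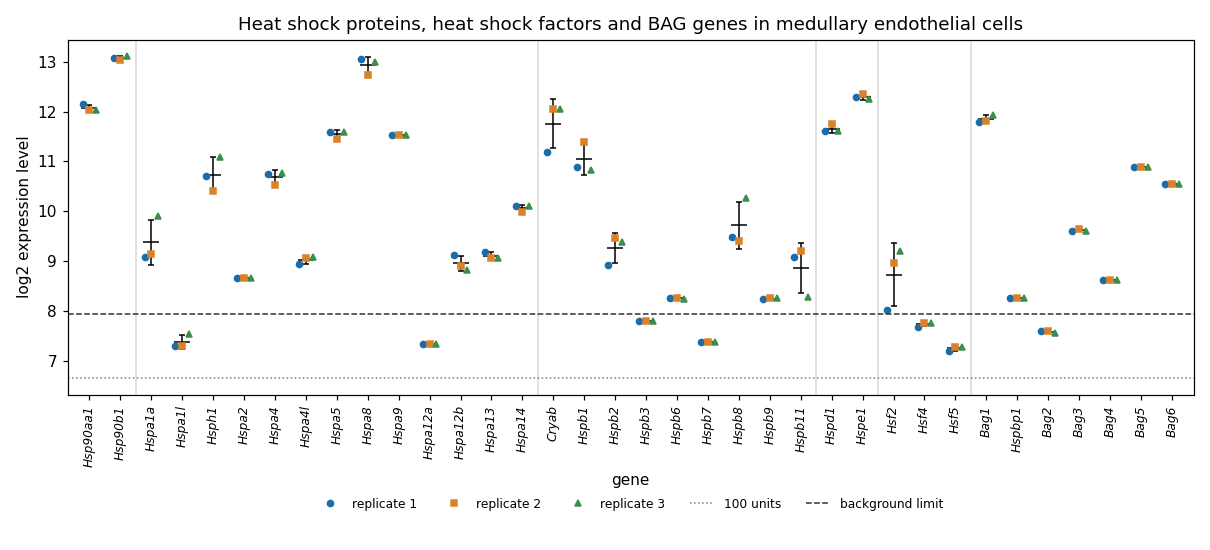
Log2 expression level (y axis) of the 36 genes other than DnaJ (x axis, families separated by grey lines), with 1 point per array and a bar for the mean and SD of 3 arrays; the dotted line marks 100 units (6.64) and the dashed line the background limit (7.94). All 36 genes lie above the dotted line and 29 were called above the dashed one, and Cryab, Hspb8, Hspb11 and Hsf2 show wide bars.

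Both measured HSP90 genes were above both limits with little spread. Hsp90aa1, the cytosolic form that heat induces, had log2 levels of 12.14, 12.04 and 12.04 in replicates 1, 2 and 3, and a mean of 4308 units (log2 12.07 ± 0.06, SD, n = 3). Hsp90b1, the Grp94 chaperone of the endoplasmic reticulum, had 13.08, 13.03 and 13.12, and a mean of 8635 units (13.08 ± 0.05). No array stood out in either gene. The constitutive cytosolic gene Hsp90ab1 had no probe set naming it alone and was not analysed here.

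Of the 13 HSP70 and HSP110 genes, 11 were above the background limit and 2 below it. Hspa8, the constitutive cytosolic Hsc70, had log2 levels of 13.05, 12.73 and 13.00 (mean 12.93 ± 0.17, SD, n = 3). Hspa5, the BiP chaperone of the endoplasmic reticulum, had 11.60, 11.46 and 11.60. Hspa9, the mitochondrial mortalin, had 11.53 in all 3 arrays. In these probe sets the genes, which serve the cytosol, the secretory pathway and the mitochondrion in unstressed cells, differed by at most 1.25-fold between arrays. The Hspa8 probe set placed on the gene's own chromosome spread more widely, with 11.98, 11.41 and 11.85, a range of 0.58. The equal values of Hspa9 are not a measured absence of error.

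The stress-inducible Hspa1a spread more widely, with 9.08, 9.15 and 9.90 (mean 9.38 ± 0.45, SD, n = 3, adjusted p = 0.00288 against the background limit by limma). Its highest array, replicate 3, was 1.76-fold above its lowest, while replicates 1 and 2 lay close together. A probe set shared by Hspa1a and its near-identical copy Hspa1b, which counts for neither, had 9.54, 9.50 and 10.11, with replicate 3 again the highest. Because the copies share sequence, the level of Hspa1a is uncertain as that of 1 gene.

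Among the nucleotide exchange factors of the HSP110 branch, Hsph1 (Hsp105) had log2 levels of 10.70, 10.41 and 11.10 (mean 10.74 ± 0.34, SD, n = 3). Hspa4 had 10.76, 10.52 and 10.78, and Hspa4l, known as an osmotic stress protein of the renal medulla, had 8.93, 9.06 and 9.07. Replicate 3 was the highest array in all 3 genes, by a small margin in Hspa4 and Hspa4l. All were above the background limit, with an adjusted p of 0.000242 for Hspa4l by limma.

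The divergent members of the family split. Hspa12b, an atypical HSP70 known from endothelial cells, had 9.12, 8.91 and 8.83 (mean 8.95 ± 0.15, SD, n = 3) and was above the background limit (adjusted p = 0.000633 by limma). Its relative Hspa12a, known mainly from brain, stood at 7.34 in all arrays and was below it (adjusted p = 0.000972 by limma). Hspa13, an HSP70 of the microsomal fraction, had 9.19, 9.05 and 9.05, and the ribosome-associated Hspa14 had 10.10, 9.98 and 10.10. Of the 2 members known for spermatogenesis, Hspa2 was at 8.65 in every array, above the limit, and Hspa1l, with 7.30, 7.30 and 7.54, was below it (adjusted p = 0.00379 by limma).

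The small heat shock proteins were the family with the largest share of widely spread genes. Of 9 genes, 7 were above the background limit, 1 was below it and 1 could not be separated from it, and 4 had an SD over 0.3 on the log2 scale. Cryab, the alpha-B crystallin that also accumulates in medullary cells under osmotic stress, had log2 levels of 11.19, 12.04 and 12.04 (mean 11.76 ± 0.49, SD, n = 3). Replicate 1 was alone in being low there, with 2339 units against 4223 in each of the others. Hspb2, which lies next to Cryab in the genome, had 8.92, 9.47 and 9.39 (9.26 ± 0.30), also lowest in replicate 1. Both genes were above the background limit (adjusted p = 0.000172 for Cryab and 0.00115 for Hspb2 by limma).

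Hspb1, the Hsp25 protein that binds actin filaments, had 10.89, 11.39 and 10.83 (mean 11.04 ± 0.31, SD, n = 3). Its high array was replicate 2, and its second probe set had the same pattern with 10.79, 11.26 and 10.71. Hspb8, which acts with Bag3 in the selective disposal of misfolded proteins, had 9.48, 9.40 and 10.27 (9.72 ± 0.48). Replicate 3 was the high array of Hspb8, at 1233 units against 712 and 676. Bag3 itself had 9.61, 9.65 and 9.61 and so did not follow Hspb8. Hspb11, also known as the intraflagellar transport protein Ift25, had 9.08, 9.21 and 8.28 (8.86 ± 0.50), and here replicate 3 was the low array. Its call above the background limit (adjusted p = 0.0168 by limma) was lost without replicate 1 and without replicate 2.

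The muscle-enriched members of the family lay on both sides of the background limit. Of the 6 listed genes, 4 were above it, namely Cryab, Hspb2, Hspb8 and Hspb6, the last at 8.27, 8.27 and 8.24. Hspb7, the cardiovascular small heat shock protein, was below it at 7.36, 7.38 and 7.38. Hspb3, at 7.80 in all arrays, could not be told from the limit (adjusted p = 0.0793 by limma). Acta2, Myh11 and the other smooth muscle and pericyte markers were not above that limit, and their summed level was 1248 to 1282 units per array. Hspb9, known from testis, had 8.24, 8.25 and 8.25 and was above the limit (adjusted p = 0.00921 by limma).

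The chaperonin of the mitochondrial matrix and the other mitochondrial members were above the background limit with 1 exception. Hspd1 (Hsp60), which forms the folding chamber, had log2 levels of 11.61, 11.76 and 11.61, and Hspe1 (Hsp10), its lid, had 12.29, 12.35 and 12.24. Together with Hspa9, the J protein Dnaja3 (9.50 in all arrays) and the import motor subunit Dnajc19 (10.14, 10.31 and 10.11), 8 of 9 mitochondrial members were above the limit. The exception was Dnajc28, with 7.25, 7.41 and 7.25. Replicate 2 was the highest array of 6 of these 9 genes, and the other 3 were equal in all arrays. Over all 19938 genes, 2628, 2483 (12.5%) and 2766 were highest in replicate 1, 2 or 3 alone. The rest had no single highest array. The differences between arrays were small in Hspd1 and Hspe1 (1.11-fold and 1.07-fold from lowest to highest array) and larger in Dnajc15 (9.38, 9.84 and 9.38) and Dnajc30 (8.93, 9.49 and 8.93). The Hspd1 probe set placed on the gene's own chromosome went the other way, with 10.56, 9.51 and 10.30 and its lowest value in replicate 2. The proteases and folding factors of mitochondria in a separate list, such as Afg3l2 at 9.02 ± 0.18 and Clpb at 8.29 ± 0.02, were all above the limit (11 of 11), and 2 of the 11 were highest in replicate 2.

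The genes of the chaperonin are a textbook pair: Hspd1 and Hspe1 lie head to head on chromosome 1 and share a promoter. The windows in the RefSeq promoter table (assembly GRCm38.p6), which run from upstream of each start to just past it, overlap by 285 bases for this pair. Heat shock factors bind inverted repeats of the unit nGAAn. The 3-unit element GAANNTTCNNGAA, searched on both strands, was found in the windows of 4 of the 64 members that the table holds (6.25%), and in those of 179 of all 27025 genes in the table (0.662%). The 4 genes were Hspd1, Hspe1, Hsph1 and Dnajb6, and Hspd1 and Hspe1 hold the same letters. The looser 2-unit forms GAANNTTC or TTCNNGAA, which the 3-unit element contains, were found in 16 of 64 members (25%) and in 17.0% of all genes. These matches are letters in a window and not measured binding. The stretches around the 3-unit matches are shown as a feature of sequence that the choice by symbol did not use. Of the 11 measured members listed as heat-inducible, 3 held the element (Hspd1, Hspe1 and Hsph1), and Dnajb6 is not in that list. Hspd1 and Hspe1 hold it in the same stretch. How many of these 11 have a window was not counted, so the others were not all shown to lack it. The capitals mark the bases that fall in a match, 5′ to 3′ on the strand given.
Hspe1, chr1:55088053-55088082, plus strand: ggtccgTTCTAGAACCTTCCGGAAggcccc
Dnajb6, chr5:29735844-29735872, plus strand: agctccgaGAATCTTCCGGAAcgctagac
Hsph1, chr5:149636287-149636308, minus strand: gctgcagaTTCTGGAAAGTTCt
The Hspe1 stretch holds overlapping matches, so that 4 units follow each other, while the Hsph1 match lies after the start of the gene.

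A list of 13 members linked to heat induction was measured for 11 genes, and Hsp90ab1 and Hspa1b were not analysed here. The list also holds Hspa8 and Hsp90ab1, named above as constitutive, so its counts are not of inducible genes alone. Of the 11, 10 were above the background limit. The exception was Dnajb1 (Hsp40), the J protein that heat shock induces together with Hspa1a, with log2 levels of 7.91, 7.89 and 8.39 (mean 8.06 ± 0.28, SD, n = 3). It was above 100 units but could not be told from the background limit (adjusted p = 0.42 by limma), with replicate 3 above that limit and replicates 1 and 2 just below it. No member of this list was equal in all arrays, and 4 had their highest value in replicate 3, 4 in replicate 2 and 2 in replicate 1. Of the genes of the early response to tissue dissociation, 12 of 16 were above the background limit, 1 (Myc) was below it, and for 3 (Fos, Fosb and Atf3) no difference from it was called. Fos was 8.02 in each array. All 3 samples were digested and sorted, so levels in the intact tissue and levels reached during dissociation cannot be told apart.

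All 12 members of the endoplasmic reticulum were above the background limit. Besides Hsp90b1 and Hspa5, the J proteins of the lumen and membrane belong to this group. Dnajb11 (ERdj3), a partner of BiP, was at 10.74 in all arrays, Dnajb9 (ERdj4) at 8.91, 8.91 and 9.02, and Dnajc10 (ERdj5), a disulfide reductase, at 10.85, 10.70 and 10.72. Dnajc3, the p58IPK co-chaperone, had 12.22, 11.88 and 12.03 (mean 12.04 ± 0.17, SD, n = 3). Of the 12, 5 were highest in replicate 1 and 5 were lowest in replicate 2. Over all 19938 genes, 2628 were highest in replicate 1 and 2298 were lowest in replicate 2. The wider list of folding factors of this compartment had 15 of 17 genes above the limit. Among these were Calr (11.82 ± 0.01) and Calr3 (8.99 in all arrays), and Xbp1, a transcription factor of the unfolded protein response, was at 9.14 in all arrays. The exceptions were Clgn, a chaperone of sperm development (6.36), and the pancreatic disulfide isomerase Pdia2 (6.75 ± 0.07).

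The promoters of 3 of these 12 genes held the complete endoplasmic reticulum stress element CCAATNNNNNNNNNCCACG, the sequence through which the unfolded protein response acts on BiP and its partners. It was searched on both strands and found in 3 of 64 members with a window (4.69%), namely Hspa5, Hsp90b1 and Dnajc3, and in 37 of 27025 genes (0.137%). The stretches are shown because they join the HSP70, HSP90 and J protein of 1 compartment by a feature of sequence. Capitals mark the matches, and the second match of Hsp90b1 runs on the opposite strand. The sequences are from the same RefSeq table and build.
Hspa5, chr2:34771985-34772083, plus strand: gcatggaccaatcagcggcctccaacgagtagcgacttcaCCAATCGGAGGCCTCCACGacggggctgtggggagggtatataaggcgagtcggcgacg
Hsp90b1, chr10:86705493-86705694, minus strand: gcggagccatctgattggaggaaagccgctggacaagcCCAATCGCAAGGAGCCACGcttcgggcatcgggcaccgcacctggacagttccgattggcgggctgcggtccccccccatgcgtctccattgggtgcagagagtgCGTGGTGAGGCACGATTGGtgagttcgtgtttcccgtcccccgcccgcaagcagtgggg
Dnajc3, chr14:118937787-118937885, plus strand: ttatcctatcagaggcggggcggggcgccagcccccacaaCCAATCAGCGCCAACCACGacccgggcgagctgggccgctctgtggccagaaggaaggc
The mean log2 levels of these genes were 11.55 ± 0.08 (Hspa5), 13.08 ± 0.05 (Hsp90b1) and 12.04 ± 0.17 (Dnajc3). Replicate 2 was the lowest array of each, by a range of only 0.09 in Hsp90b1. It was also the lowest array of 19 of all 79 members and of 2298 of all 19938 genes. The other 9 members of the group include genes with no window in the table, and the lack of these letters in a window says nothing of the factor.

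Of the heat shock factors measured, only Hsf2 was above the background limit, and by a narrow margin. Hsf2, which cooperates with Hsf1, had log2 levels of 8.02, 8.96 and 9.20 (mean 8.73 ± 0.62, SD, n = 3, adjusted p = 0.0484 against the background limit by limma). Replicate 1 lay almost on that limit, and replicate 3 was 2.27-fold above replicate 1. The call was lost without replicate 2 and without replicate 3. Hsf4, known from the lens, had 7.68, 7.76 and 7.76 and was below the limit (adjusted p = 0.0336 by limma), a call lost without replicate 1, and Hsf5, known from testis, had 7.19, 7.27 and 7.27. Hsf1, the main factor of the heat response, had no probe set of its own here and was not analysed. Among related genes, Hsbp1, a small protein that binds Hsf1, was above the limit (11.16 ± 0.55), Hsf2bp could not be told from it (7.81 ± 0.05), and Hsf3 (4.45) and Hsfy2 (5.34) were below 100 units.

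Most of the BAG genes, whose proteins release nucleotide from HSP70, were above the background limit and varied little. Bag1 had log2 levels of 11.79, 11.82 and 11.94. Bag4, Bag5 and Bag6 each had the same level in all arrays, 8.61, 10.88 and 10.54. Bag6 guards tail-anchored proteins on their way to the endoplasmic reticulum. The exchange factor Hspbp1 was at 8.25 in all arrays (adjusted p = 0.00832 by limma). Bag2, an inhibitor of the ubiquitin ligase Stub1 (CHIP), was the exception, with 7.59, 7.59 and 7.55 and below the limit (adjusted p = 0.00541 by limma), while Stub1 was at 10.55 in all arrays. No gene of this group had an SD over 0.08 between arrays. However, 4 of its 7 genes were equal in all arrays, which is not a measured absence of error.

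The plot of the DnaJ genes gives the same values for the J proteins, by class.

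**Figure D2:**
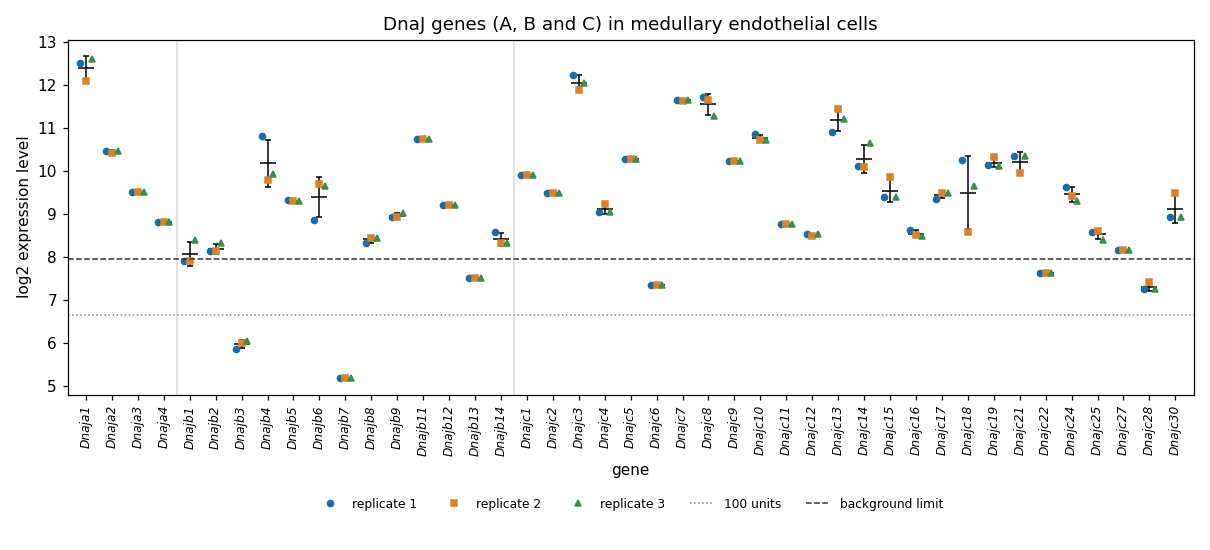
Log2 expression level (y axis) of the 43 DnaJ genes (x axis, classes A, B and C separated by grey lines), with 1 point per array and a bar for the mean and SD of 3 arrays; the dotted line marks 100 units (6.64) and the dashed line the background limit (7.94). Dnajb3 and Dnajb7 lie below the dotted line, and Dnajc18 and Dnajb4 have the widest bars.

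All 4 class A genes, which encode the closest relatives of bacterial DnaJ, were above the background limit. Dnaja1, a cytosolic partner of Hspa8, had log2 levels of 12.50, 12.07 and 12.60 (mean 12.39 ± 0.28, SD, n = 3). Replicate 2 was its low array in this probe set, but the probe set among the gene's own neighbours had 10.88, 11.06 and 10.95 and was highest in replicate 2. Dnaja2, of the same compartment, had 10.47, 10.41 and 10.47, and Dnaja4 was at 8.80 in all arrays.

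Of 13 class B genes, 9 were above the background limit, 3 below it, and Dnajb1 was the remaining one. Dnajb4, a cytosolic relative of Dnajb1, had 10.80, 9.79 and 9.93 (mean 10.17 ± 0.54, SD, n = 3), so replicate 1 was the high array, 2.00-fold above the lowest. Dnajb6, which suppresses aggregation of polyglutamine proteins, had 8.85, 9.68 and 9.64 (9.39 ± 0.47), with replicate 1 the low array. Probe sets that name Dnajb6 together with the predicted gene Gm4247, which were not used for either gene, had means of 11.50 to 11.62 and were lowest in replicate 3. The 2 kinds of probe set for Dnajb6 therefore disagreed both on the level and on the order of arrays. Dnajb2, a form known from neurons, lay just above the limit at 8.12, 8.12 and 8.32 (adjusted p = 0.0361 by limma), and lost that call when any 1 of the arrays was left out.

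The class B genes below the limit are known from testis. Dnajb3 had 5.86, 6.01 and 6.05, and Dnajb7 was at 5.18 in all arrays, and both were also below 100 units (adjusted p = 0.000977 and 4.27e-05 by limma). Dnajb13, a component of the sperm axoneme, was at 7.51. Among all 8 members listed for testis, 5 were below the background limit, with Hspa1l and Hsf5 joining these 3. The other 3, Hspa2, Hspb9 and Dnajb8 (8.32, 8.45 and 8.45), were above it. A call above the limit rests on probe sets whose specificity was not examined here.

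Class C is the mixed class, in which the J domain is joined to many other functions, and 23 of its 26 genes were above the background limit. The largest spread of all 79 genes was that of Dnajc18, a membrane protein of the endoplasmic reticulum, with log2 levels of 10.25, 8.58 and 9.64 (mean 9.49 ± 0.85, SD, n = 3). Its 3 arrays differed from each other, replicate 1 being 3.19-fold above replicate 2, and its call above the limit (adjusted p = 0.0154 by limma) was lost without replicate 1 and without replicate 3. Dnajc13 (RME-8), which acts in endosomal sorting, had 10.90, 11.42 and 11.21, and Dnajc14 had 10.10, 10.09 and 10.65 with replicate 3 the high array. Dnajc5, the cysteine string protein of secretory vesicles (10.27), Dnajc9, a histone chaperone (10.22), and Dnajc2, a ribosome-bound chaperone (9.49), were equal in all arrays.

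Other class C genes above the limit serve RNA and protein synthesis. The splicing factor Dnajc8 had 11.72, 11.65 and 11.26, Dnajc17, also linked to splicing, had 9.35, 9.48 and 9.48, and Dnajc21, needed for ribosome assembly, had 10.34, 9.95 and 10.33. Dnajc7 (Tpr2), which passes clients between HSP70 and HSP90, had 11.64, 11.63 and 11.64, and Dnajc24, of diphthamide synthesis, had 9.62, 9.42 and 9.30. The genes below the limit were Dnajc28, Dnajc22 (7.61 in all arrays, adjusted p = 0.00711 by limma) and Dnajc6 (7.34 in all arrays, adjusted p = 0.00101 by limma). Dnajc6 encodes auxilin, the neuronal uncoating factor of clathrin vesicles.

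Spread between arrays was wider among these genes than the typical gene showed, as a description and with no test. Of the 79 members, 12 (15.2%) had an SD over 0.3 on the log2 scale, against 6.08% of all genes. Lists of related genes outside these families ranged from 0% (the cytosolic chaperonin TRiC) to 33.3% (prefoldin), with 15% among co-chaperones of HSP90 and HSP70. The members also lay higher than all genes (median log2 level 9.38 against 8.15), and spread at a matched level was not compared. The same value in all arrays was found for 22 members (27.8%), for 20% of those co-chaperones and for 46.3% of all genes. Among the lists of related genes this share ran from 0% (prefoldin) to 50% (other heat shock factor genes and their regulators). Equal values can come from the median polish of the summary method when few arrays are fitted, so an SD of 0 is not a measured absence of error. No single array carried the spread. The highest array was replicate 1 for 14 members, replicate 2 for 14 and replicate 3 for 15, with ties left out, and the summed level of the members was 104380, 101710 and 106520 units.

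The plot of the widely spread genes sets their 3 arrays around each gene's own mean.

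**Figure D3:**
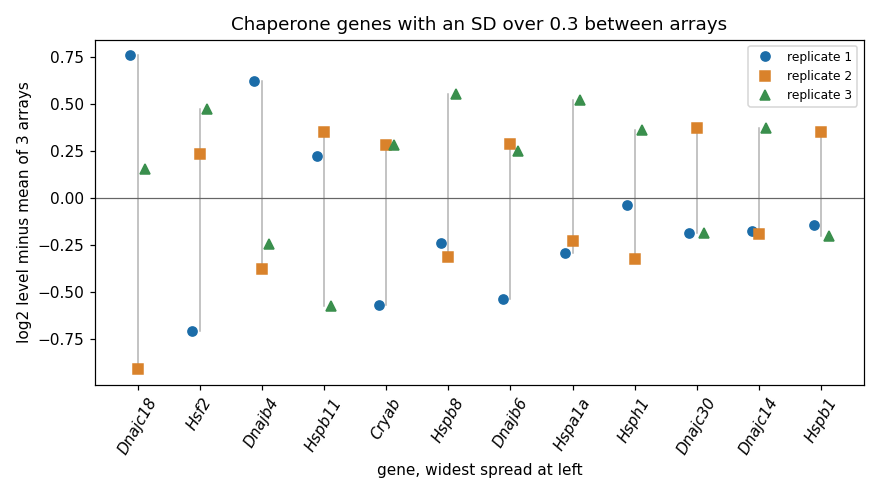
Log2 level minus the mean of the 3 arrays (y axis) for the 12 genes with an SD over 0.3 (x axis, widest spread at left), with 1 point per array and a grey line from the lowest to the highest. Replicate 3 is highest in Hspb8, Hspa1a, Hsph1, Dnajc14 and Hsf2, replicate 1 is highest in Dnajc18 and Dnajb4, and replicate 1 is lowest in Cryab, Dnajb6 and Hsf2.

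The genes with wide spread fell into different patterns. Hspa1a, Hsph1, Hspb8 and Dnajc14 were highest in replicate 3, and so was Dnajb1, whose SD was 0.28. Cryab, Dnajb6 and Hsf2 were lowest in replicate 1, Hspb1 and Dnajc30 were highest in replicate 2, Dnajb4 was highest in replicate 1 and Hspb11 lowest in replicate 3. Other values also moved by array. Of the 7 thick ascending limb markers, 2 were highest in replicate 1, namely Umod (11.61, 10.40 and 9.49) and Slc12a1 (9.68, 8.07 and 7.81), while Cldn10 (8.76, 9.08 and 8.50) was highest in replicate 2, Cldn16 (7.07, 7.34 and 7.34) was lowest in replicate 1, and the other 3 were equal in all arrays. Of the 10 collecting duct markers, 4 were highest in replicate 2, 1 in replicate 1 and 0 in replicate 3. The widest of these was Fxyd4 (9.24, 10.32 and 9.16), while Atp6v1g3 (7.92, 7.69 and 7.38) was highest in replicate 1. Umod and Slc12a1, the only thick ascending limb markers with an SD over 0.3, both fell from replicate 1 to replicate 3. Markers with equal values in all arrays cannot show whether a list moved together. The part of thick ascending limb and collecting duct cells in the spread was not tested, and with 3 arrays no relation across samples can be.

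For 8 members several probe sets named the gene alone, and the plot of these probe sets gives all of them. In all 8 genes every probe set lay on the same side of both limits.

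**Figure D4:**
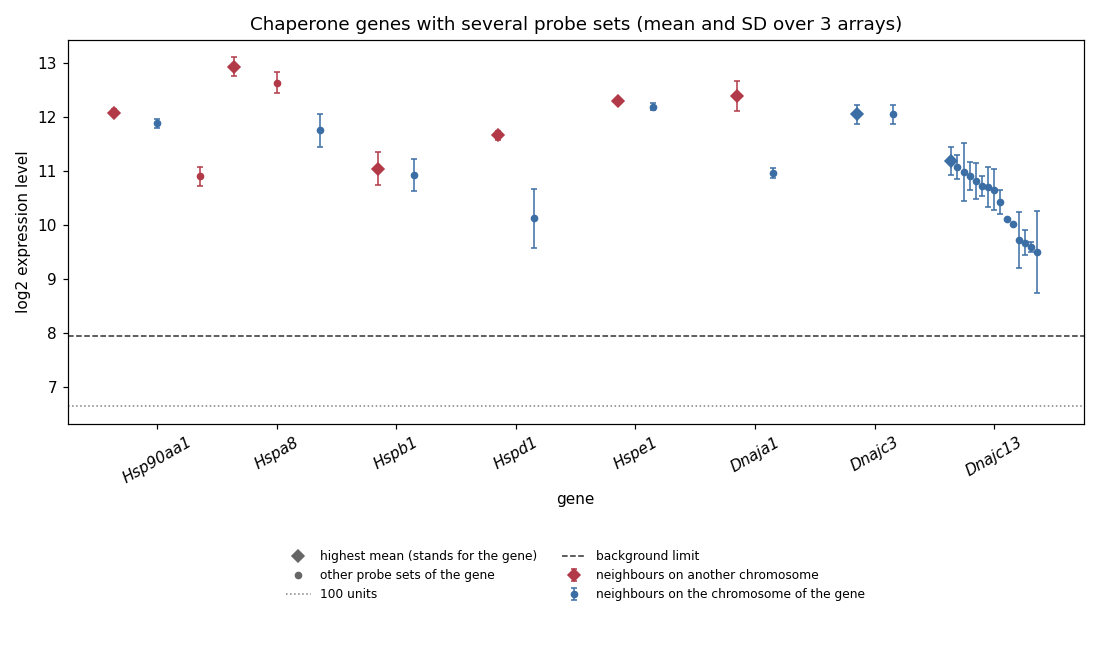
Mean log2 level (y axis, bars give the SD of 3 arrays) of every single-gene probe set of the 8 genes that have several (x axis); diamonds mark the probe set that stands for the gene, red those with 0 of 6 identifier neighbours on the chromosome of the gene. All points lie above the background limit (dashed, 7.94), and the red diamonds of Dnaja1 and Hspd1 lie well above the blue points of the same genes. By the choice of the highest mean, no point of a gene can lie above its diamond.

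The levels themselves depended on the probe set. Probe sets of this array carry identifiers that follow the order of genes along a chromosome. The 3 identifiers on each side of a probe set therefore show which chromosome it was placed on. For 6 members, Hsp90aa1, Hspa8, Hspb1, Hspd1, Hspe1 and Dnaja1, the probe set with the highest mean had 0 of 6 such neighbours on the gene's own chromosome, and 8 of the 102 probe sets were placed in this way. Since the probe set with the highest mean stands for the gene, the one among the gene's own neighbours could only be lower. Only the size of the difference is therefore an observation. The mean among the gene's own neighbours was 10.96 ± 0.09 for Dnaja1 against 12.39, 10.12 ± 0.55 for Hspd1 against 11.66, and 11.75 ± 0.30 for Hspa8 against 12.93. The difference was smaller for Hsp90aa1 (11.88 against 12.07), Hspe1 (12.18 against 12.29) and Hspb1 (10.92 against 11.04). The levels of these 6 genes are therefore uncertain, although all 6 stayed above both limits with the probe set among their own neighbours, a choice of probe set made after the data were seen. The 15 probe sets of Dnajc13, all on its own chromosome, had means of 9.50 to 11.18. The 2 probe sets of Dnajc3 had identical values.

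The partners of the HSP machinery outside these families were also mostly above the background limit. Of 20 measured co-chaperones of HSP90 and HSP70, 19 were above it, such as Ahsa1 (10.38 ± 0.23, SD, n = 3), which stimulates the ATPase of HSP90, and Ahsa2 (10.36 ± 0.38). The exception was Fkbp5, the immunophilin that glucocorticoids induce, at 7.94 ± 0.01, which lay on the limit. Of 9 subunits of the cytosolic chaperonin TRiC, 8 were above it, such as Cct2 (11.18 ± 0.12) and Cct3 (9.00 ± 0.09), and the testis form Cct6b (6.28 in all arrays) was below it. Of 6 prefoldin subunits, which hand unfolded actin and tubulin to TRiC, 5 were above it, such as Pfdn1 (9.20 ± 0.26) and Pfdn2 (11.95 ± 0.11), while Pfdn4 could not be told from it because its arrays spread from 7.93 to 9.39. Of 7 measured genes of the response to hypertonicity, 6 were above it, among them the member Hspa4l and Nfat5 (11.75 ± 0.14), the transcription factor of that response. The betaine transporter Slc6a12 (7.80 in all arrays) could not be told from it.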

How the data were processed

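Array RNA of 3 samples of sorted medullary endothelial cells was analysed. The authors deposited 1 summarised value for each of 35557 probe sets, read here as log2 expression from how far the values range. The submitters' processing notes name Affymetrix Expression Console, and the paper GeneSpring with robust multi-array averaging. Whether 100 units here equals 100 on the raw scale of the study's filter was not stated. Of the probe sets, 21789 named 1 gene, 1621 several and 12147 none. Symbols were updated through Entrez identifiers (21698 matched). No coordinates of probe sets are given, since the build behind them was not stated. Promoters were taken from RefSeq, GRCm38.p6. Protein sequences were not analysed here.

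The log2 level minus each limit was tested against 0 for every gene in limma 3.58.1 (R 4.3.3), two-sided, with Benjamini-Hochberg adjustment over 19938 genes and a threshold of 0.05. The prior variance (1.91 degrees of freedom, SD 0.147) was taken from genes with 3 different values. The step was tested on simulated data. There being a single group, no batch or contrast could be examined, and precision is limited by the number of arrays. The medians of the arrays differed by at most 0.03 over all probe sets. Python 3.11.15, numpy 2.4.6, pandas 2.3.3 and matplotlib 3.10.9 were also used.

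Members, lists and rules were chosen with earlier results of these data known. By the rule for named genes any member may be named. Values of all arrays were given for members of the families other than DnaJ that were above the background limit or heat-inducible, for the 10 largest SDs and for members nearest to a limit. The co-chaperone, TRiC, prefoldin, endoplasmic reticulum and mitochondrial lists were given by counts, the alphabetically first 2 genes and the exceptions. Other genes named, those of the hypertonic and early response lists included, were chosen after their values were seen. Alternatives changed the limits, the probe set, the normalization, the prior, the filter and the genes fitted, and left out each replicate.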

Additional observations from a re-analysis of the deposited data

How the results depend on the processing

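All calls against 100 units were the same under the alternatives that kept that limit, including the lowest probe set, the mean of probe sets, quantile normalization, median centring, both other priors and each replicate left out, and 77 members stayed above it. The limit itself moved the counts: with 50 units 1 member was below it, with 200 units 8 were below and 66 above, and a filter at 50 units left 1 below because the gene at 36 units was no longer tested. With the background limit at the 90th percentile of the sensory receptor probe sets, 7 members were below it, and with the 99th percentile 22 were below and 46 above, in place of 12 and 65. Without a replicate 62 members were above the background limit in each case and 11 to 12 below. The calls lost were those of Dnajb2, Dnajc18, Hsf4 and Hspb11 without replicate 1, Dnajb2, Hsf2 and Hspb11 without replicate 2, and Dnajb2, Dnajc18 and Hsf2 without replicate 3. A prior from all genes changed 4 calls (Dnajc18, Hsf2, Hspb11 and Hspb3), and fitting all probe sets changed 4 (Dnajb2, Hsf2, Dnajc27 and Hsf4). The mean of probe sets changed 1 (Hsf2). With the lowest probe set 6 of 79 levels moved by more than the gene's own SD between arrays, the largest shift being 1.68 on the log2 scale. With the probe set among the gene's own neighbours, chosen after the data were seen, 5 moved by more than that SD, the largest shift being 1.54, and no call changed. Hspb1 shifted by less than its SD in both settings, from 11.04 to 10.92. Beyond the stated construction of the settings, the cause was not tested. With 1 group of 3 arrays, signal over background limits what can be said of genes near either limit.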
